A study of Mus musculus with 9 samples.

Results

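miR-130a-3p, miR-130b-3p and miR-301a-3p are mature microRNAs (miRNAs) of the miR-130 family, 3 of the 876 miRNAs with a count in any of 9 mouse serum libraries. They were selected by their miRBase identifiers (MIMAT0000141, MIMAT0000387 and MIMAT0000379, in this order) with their measured counts, scaled to the miRNA sum of each library, already known. Their levels and changes are therefore a description of these libraries and carry no test of their own. The sum of the 3 took 0.346% of all miRNA counts in undepleted serum.

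Serum came from healthy male and female mice of the 129/SVj strain, aged 2 to 9 months, and was pooled. Every RNA pool was split in 3, and 5′ tRNA fragments, which dominate small RNA libraries of mouse serum, were the depletion target. The control fraction was left undepleted. The beads fraction was depleted by biotinylated DNA probes that were captured on streptavidin-coated magnetic beads, and the RNase H fraction by cleaving RNA paired with such probes with the enzyme RNase H. The labels name pools A, B and C in every group, which gives 3 libraries per group. The study's methods describe aliquots of a pool made from 3 mice, so the spread between libraries may be technical only. Serum is cell-free, and fewer cells releasing an miRNA cannot be told apart from less miRNA released per cell.

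An miRNA is loaded into an Argonaute protein and recognises target mRNAs mainly through its seed, the bases 2 to 8 from its 5′ end. Pairing of the seed with the mRNA lowers the stability or the translation of that mRNA. Members of a family share the seed and can therefore recognise overlapping sets of targets, while they are transcribed from separate genes. miR-130a is known from endothelial cells and blood vessel growth, and the miR-130 and miR-301 family from vascular remodelling and fat cell differentiation.

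The mature sequences are shown to make visible what the family shares and where its members part. Each is written 5′ to 3′ as in RefSeq (GRCm38.p6), with the seed in capitals.
miR-130a-3p: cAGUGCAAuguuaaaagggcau
miR-130b-3p: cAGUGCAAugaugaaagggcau
miR-301a-3p: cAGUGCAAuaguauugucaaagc
The seed AGUGCAA was present at bases 2 to 8 in 7 of the 1679 mature mouse miRNAs in that table (0.417%). miR-130a-3p and miR-130b-3p were 22 bases long and differed by 2 substitutions, U11A and A13G, where the first base is that of miR-130a-3p and positions are counted from 1 at the 5′ end. miR-301a-3p was 23 bases long. It shared the first 9 bases with both and differed from miR-130a-3p at 10 and from miR-130b-3p at 11 of the first 22 positions. GC content was 40.9% for miR-130a-3p, 45.5% for miR-130b-3p and 39.1% for miR-301a-3p, below the median of 52.2% over all mature miRNAs in the table. The longest run of bases shared by any pair of members was 10, shorter than the 15 bases required of a read. A read without mismatches could thus be assigned to only 1 of the 3.

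The other miRNAs that the RefSeq table lists with this seed are shown because the family by seed is wider than the 3 members.
miR-6341: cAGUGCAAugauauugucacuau
miR-721: cAGUGCAAuuaaaagggggaa
miR-6389: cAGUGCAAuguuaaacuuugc
miR-130c: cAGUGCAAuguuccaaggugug
Their counts were not analysed here, because the count tables carry miRBase identifiers without names. A further 13 mature miRNAs (0.774%) held the letters GUGCA within bases 1 to 8 but not the full seed.

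The members are encoded at separate loci (GRCm38, GENCODE M21 annotation). The Mir130a hairpin lies at chr2:84741115-84741178 on the minus strand and overlaps no other annotated gene. The nearest gene, Gm19426, is 991 bases away. The Mir301 hairpin, which gives miR-301a-3p, lies at chr11:87113004-87113089 on the plus strand, in an intron of both spanning transcripts of Ska2, which encodes a protein of the spindle and kinetochore. The Mir130b hairpin lies at chr16:17124061-17124142 on the minus strand. It is 257 bases from the Mir301b hairpin at chr16:17124400-17124496 on the same strand, and both are intronic in 3 transcripts of 2610318N02Rik. Mir301b is the precursor of miR-301b. The Mir301b hairpin holds the first 9 bases of the members, and so the seed, from its base 55. No mature miRNA of Mir301b is among those listed above, so that list of the seed family may be incomplete. None of the hairpins overlapped an exon of the host gene.

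Depth differed strongly between the groups and sets the precision of every value below. The miRNA counts summed to between 205185 and 330676 in control libraries, between 1822088 and 1995956 in beads libraries and only between 1199 and 2040 in RNase H libraries. miRNAs took 4.92 to 6.72% of all annotated counts in control libraries, 51.5 to 71.4% in beads libraries and 1.27 to 4.18% in RNase H libraries. Counts annotated as piRNA took 64.9 to 74.9% in RNase H libraries and at most 1.32% in the others. Levels are given as counts per 1000000 miRNA counts of the library (CPM). A count of 3, taken as the smallest that shows a level, equals at most 14.6 CPM in control libraries and 1.65 in beads libraries, but 1471, 1517 and 2502 in RNase H libraries A, B and C. Whether the low miRNA yield of the RNase H libraries had a part in the values below was not tested.

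In undepleted serum, miR-130b-3p had the highest mean level of the 3, miR-130a-3p followed, and miR-301a-3p was the lowest. miR-130b-3p stood at 1560, 1424 and 1363 CPM in control A, B and C, from 320, 471 and 339 counts, and averaged 1449 ± 101 (SD, n = 3). miR-130a-3p stood at 1209, 1306 and 1456 CPM, from 248, 432 and 362 counts, and averaged 1324 ± 124 (SD, n = 3). miR-301a-3p stood at 746, 696 and 623 CPM, from 153, 230 and 155 counts, and averaged 688 ± 61.5 (SD, n = 3). The levels of miR-130a-3p and miR-130b-3p overlapped, and in control C miR-130a-3p was the higher of the pair, so their order was not fixed. miR-301a-3p lay below both in every control library. Wilson 95% intervals, which cover counting error only, ran from 1189 to 1435 CPM for miR-130a-3p and from 611 to 791 for miR-301a-3p in control B, the deepest control library. Different miRNAs are ligated into a library with different efficiency, so these ratios are of counts and not of molecules.

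Among the 572 miRNAs found in any control library, the mean level of miR-130b-3p ranked 54, that of miR-130a-3p 58 and that of miR-301a-3p 75. The miRNAs directly above and below miR-130a-3p averaged 1373 ± 48.6 and 1266 ± 22.7 CPM. Those beside miR-130b-3p averaged 1495 ± 67.5 and 1410 ± 115, and those beside miR-301a-3p 715 ± 70.3 and 685 ± 48.8. None of the members differed from its neighbours by more than its own spread.

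**Figure D1:**
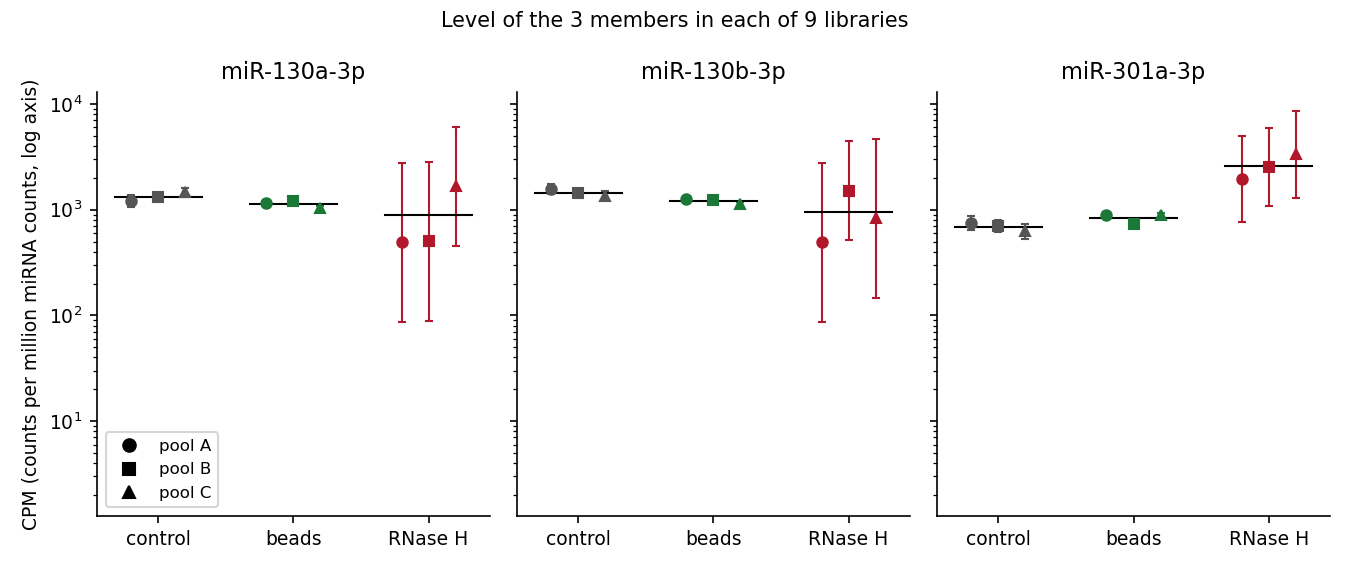
Level of each member (CPM, log axis) in the 9 libraries, by group on the x axis. Points are libraries with Wilson 95% intervals, the shape gives the pool and the black line the group mean; miR-301a-3p averaged 688 CPM in control libraries and 2609 in RNase H libraries, where all intervals are wide.

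After depletion with beads, the counts of the members rose with those of the miRNAs as a whole. Ranks of the mean level are among 572 miRNAs found in control and 837 found in beads libraries. They went from 54 to 64 for miR-130b-3p, from 58 to 65 for miR-130a-3p and from 75 to 71 for miR-301a-3p. miR-130a-3p had 2213, 2440 and 1908 counts in beads A, B and C, miR-130b-3p 2425, 2442 and 2060, and miR-301a-3p 1702, 1469 and 1629. Per 1000000 annotated counts of all classes, the sum of the 3 averaged 208 ± 30.4 in control libraries and 1915 ± 345 in beads libraries (SD, n = 3 each), so the direction of miR-130a-3p, miR-130b-3p and the sum depends on the total they are set against.

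Within the miRNA counts, miR-130b-3p was lower in every beads library than in every control library. It stood at 1259, 1223 and 1131 CPM in beads A, B and C, with a mean of 1204 ± 66.2 (SD, n = 3) and a ratio of means of 0.831. The log2 ratios within pools A, B and C were -0.31, -0.22 and -0.27. miR-130a-3p was lower within each pool too, but the groups overlapped. It stood at 1149, 1222 and 1047 CPM, with a mean of 1139 ± 88.0 (SD, n = 3), and its log2 ratios within pools were -0.07, -0.10 and -0.48. The difference of the means was thus carried mostly by pool C.

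miR-301a-3p moved the other way. It stood at 883, 736 and 894 CPM in beads A, B and C, with a mean of 838 ± 88.3 (SD, n = 3) and a ratio of means of 1.22. It was higher than the control library of the same pool in 3 of 3 pools, with log2 ratios of 0.24, 0.08 and 0.52, but beads B lay below control A and the groups overlapped. Because the members moved in opposite directions, their sum changed less than miR-130b-3p or miR-301a-3p did. It stood at 3514, 3426 and 3442 CPM in control A, B and C and at 3291, 3182 and 3072 in beads A, B and C. These groups did not overlap, and the ratio of means was 0.919.

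The log2 fold changes fitted by edgeR over all miRNAs, with standard errors, were -0.21 ± 0.094 for miR-130a-3p, -0.26 ± 0.093 for miR-130b-3p and 0.29 ± 0.11 for miR-301a-3p. The median over the 307 miRNAs tested was 0.04, with quartiles of -0.22 and 0.40. The members' median was -0.21. Among the 307, 79 had a lower fold change than miR-130a-3p, 71 a lower one than miR-130b-3p and 217 a lower one than miR-301a-3p. With Benjamini-Hochberg adjustment, 26.7% of all miRNAs tested passed a threshold of 0.05 (51 higher and 31 lower in beads libraries), and 2 of the 3 members were among them, miR-130b-3p as lower and miR-301a-3p as higher. The levels of 38.8% of all miRNAs tested did not overlap between beads and control libraries (70 higher and 49 lower in beads libraries). This was the case for 1 of the 3 members, miR-130b-3p, as lower. Since the members were chosen with these values known, nothing is read from their counts. miR-130b-3p no longer passed without control A, control B or beads C, where its fitted log2 fold change was -0.20, -0.28 and -0.21. miR-301a-3p no longer passed without control B, control C, beads A or beads C, where it was 0.30, 0.22, 0.26 and 0.25. With DESeq2 and in a joint fit of all 9 libraries miR-301a-3p did not pass (0.25 and 0.26), and without a filter on low counts miR-130b-3p did not (-0.22). miR-130a-3p passed as lower without beads B (-0.26), with DESeq2 (-0.26) and with the serum pool as a block (-0.21). With all annotated counts as library size all 3 passed as higher, as did all 332 miRNAs tested in that fit.

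**Figure D2:**
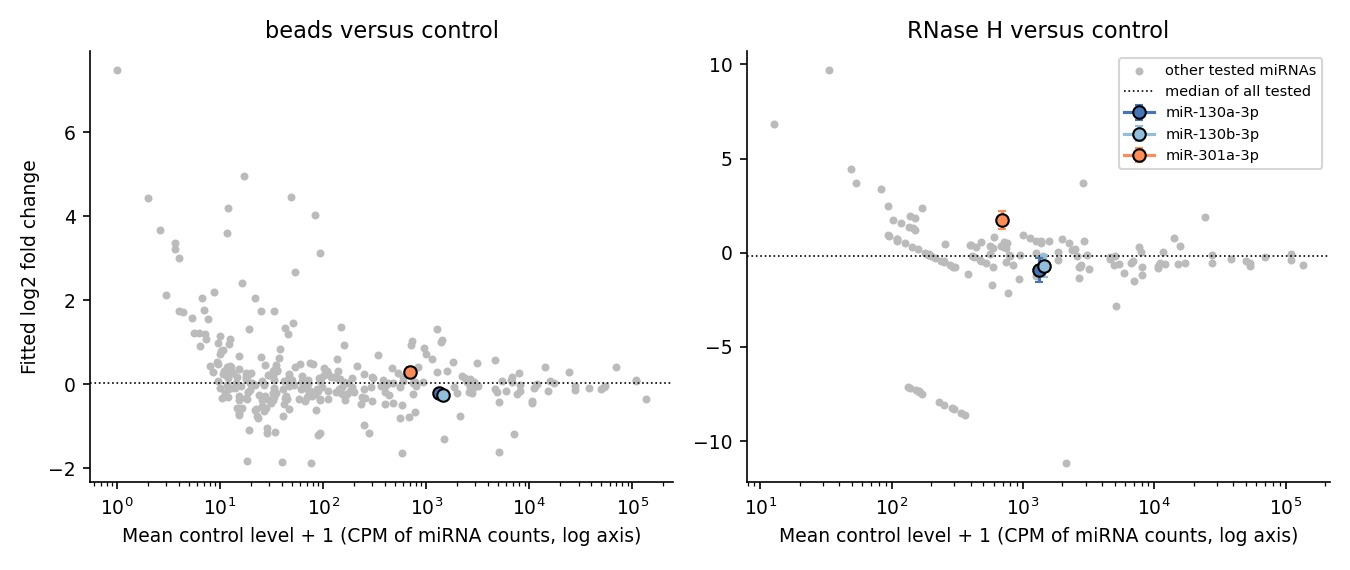
Log2 fold change fitted by edgeR (y axis) against mean control level plus 1 (x axis, CPM, log axis) for beads and RNase H libraries. Grey points are the other miRNAs tested, coloured points the members with their standard errors (hidden by the points on the left), and the dotted line is the median of all tested; the lowest grey points on the right have no count in RNase H libraries, so that their fitted value depends on the prior count.

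The make-up of the family does not depend on how libraries are scaled, since it uses the members' own counts alone. miR-301a-3p made up 21.2, 20.3 and 18.1% of the family's counts in control A, B and C, and 26.8, 23.1 and 29.1% in beads A, B and C. The mean share rose from 19.9% ± 1.60 to 26.4% ± 3.02 (SD, n = 3 each), and the groups did not overlap. miR-130b-3p took 41.9% ± 2.40 in control and 37.8% ± 0.897 in beads libraries, and miR-130a-3p 38.3% ± 3.95 and 35.8% ± 2.30. miR-130b-3p outnumbered miR-301a-3p by 2.09, 2.05 and 2.19 to 1 in control A, B and C and by 1.42, 1.66 and 1.26 to 1 in beads A, B and C. The ratio of miR-130a-3p to miR-130b-3p, the members closest in sequence, was 0.920 ± 0.146 in control libraries and 0.946 ± 0.0466 in beads libraries (SD, n = 3 each) and overlapped between them. As background, 48.2% of 305 miRNAs tested had a ratio to the summed counts of miR-130a-3p and miR-130b-3p that did not overlap between beads and control libraries, as miR-301a-3p had.

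**Figure D3:**
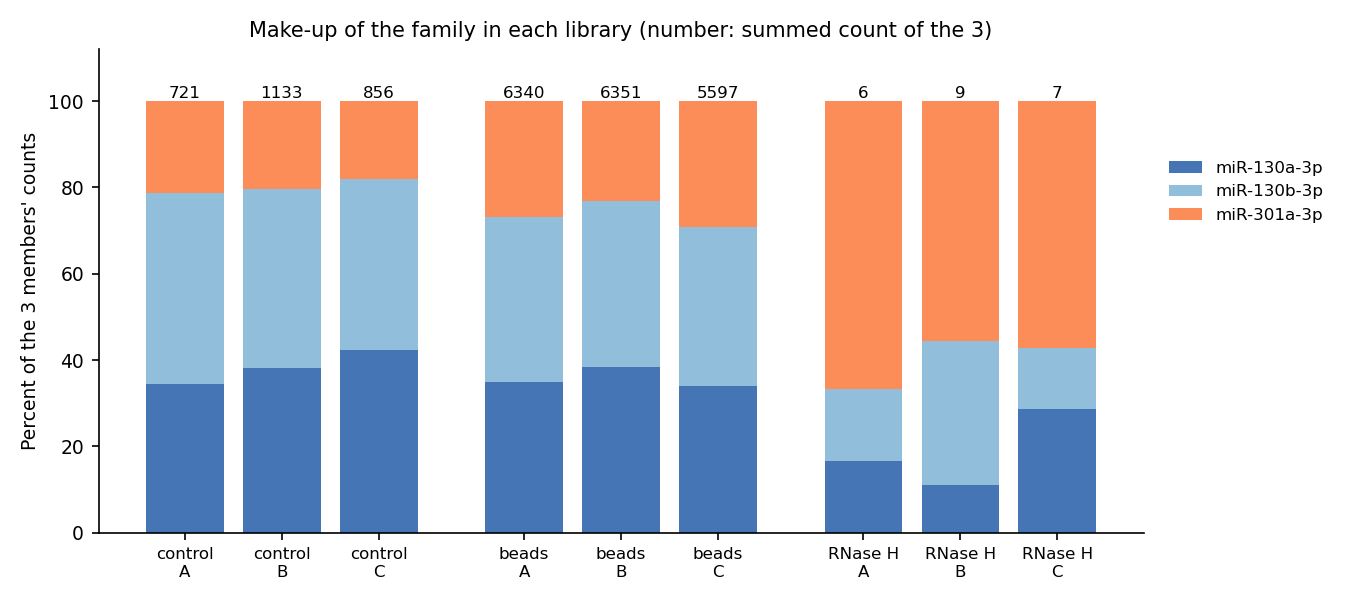
Percent of the family's summed counts (y axis) taken by each member in each of the 9 libraries (x axis); the number above a bar is the summed count of the 3. miR-301a-3p is the smallest part in all control and beads libraries and the largest in the RNase H libraries, which hold only 6, 9 and 7 counts.

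In RNase H libraries the members were at the limit of detection, with 22 counts in all. miR-130a-3p had 1, 1 and 2 counts in RNase H A, B and C, and miR-130b-3p had 1, 3 and 1. miR-301a-3p had 4, 5 and 4 counts and was the most frequent of the 3 in each library. At its mean control share, 3.59 counts of miR-301a-3p would have been found in the 3 libraries together, and 13 were found (exact 95% Poisson interval 6.92 to 22.2, counting error only), a ratio of 3.62 (1.93 to 6.19). For miR-130a-3p 4 counts were found beside 6.90 (interval 1.09 to 10.2), a ratio of 0.579 (0.158 to 1.48). For miR-130b-3p 5 were found beside 7.56 (1.62 to 11.7), a ratio of 0.662 (0.215 to 1.54). These intervals describe the counting error and are no test, and no RNase H library held more than 3 counts of miR-130a-3p or miR-130b-3p. The summed count was 22 beside 18.1 (13.8 to 33.3).

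**Figure D4:**
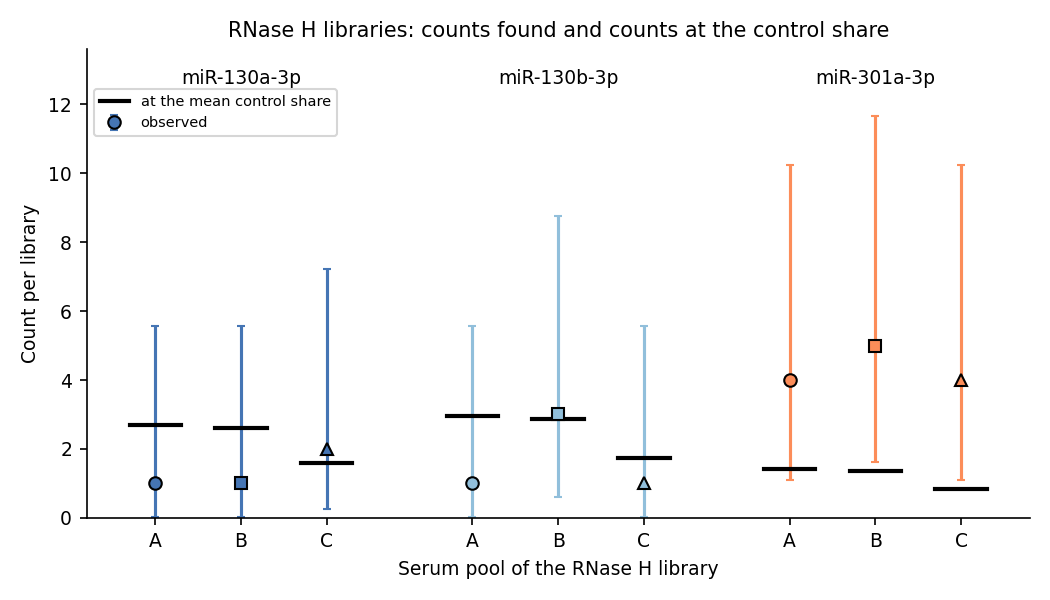
Counts of each member (y axis) in the RNase H libraries of pools A, B and C (x axis). Points are observed counts with exact 95% Poisson intervals, and black bars the count that the mean control share gives at the depth of that library; miR-301a-3p was observed 4, 5 and 4 times where 1.40, 1.36 and 0.825 counts correspond to the control share.

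miR-301a-3p reached 1961, 2529 and 3336 CPM in RNase H A, B and C, all above the control libraries, with a mean of 2609 ± 691 (SD, n = 3). The spread between these libraries was smaller than the SD of 1294 CPM that counting alone gives at this depth. Its mean level ranked 45 among the 154 miRNAs found in RNase H libraries. miR-130a-3p averaged 888 ± 676 CPM and miR-130b-3p 947 ± 523 (SD, n = 3 each), and both overlapped with the control libraries. The log2 ratio of means of miR-130a-3p was -0.28 without RNase H A, -0.29 without B and -1.41 without C, against -0.58 with all libraries. That of miR-130b-3p was -0.30 without A and -1.13 without B, against -0.61. miR-301a-3p took 66.7, 55.6 and 57.1% of the family's counts in RNase H A, B and C, against at most 21.2% in control libraries. Over the 3 libraries together it took 13 of 22 counts, or 59.1% (Wilson 95% interval 38.7 to 76.7%). miR-301a-3p, the lowest of the members in control libraries, was thus the highest in RNase H libraries. With 4 counts of miR-130a-3p and 5 of miR-130b-3p in RNase H libraries, their order there could not be told.

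The fitted log2 fold changes in RNase H libraries were -0.90 ± 0.65 for miR-130a-3p, -0.71 ± 0.58 for miR-130b-3p and 1.74 ± 0.49 for miR-301a-3p (edgeR, with standard errors). The median over the 138 miRNAs tested was -0.19, with quartiles of -0.69 and 0.51, and the members' median was -0.71. The fold change of miR-301a-3p was exceeded by that of 11 miRNAs. In all, 11.6% of the miRNAs tested passed the adjusted threshold of 0.05 in edgeR (9 higher and 7 lower in RNase H libraries). Of the 3 members 1, miR-301a-3p, was among them, as higher. It no longer passed without RNase H A, B or C, where its fitted log2 fold change was 1.96, 2.02 and 1.52, or with the serum pool as a block, where it was 1.73. With all annotated counts as library size it did not pass either, and its fitted log2 fold change fell to 0.20. In that setting miR-130a-3p and miR-130b-3p passed as lower, at -2.49 and -2.26. They were among the 47 that passed as lower, of 51 that passed and 143 tested, and the median log2 fold change was -1.70. Levels of 40.6% of all miRNAs tested did not overlap between RNase H and control libraries, 17 as higher and 39 as lower. Of the 3 members this held for 1, miR-301a-3p, as higher. The ratio to the summed counts of miR-130a-3p and miR-130b-3p did not overlap for 32.4% of 136 miRNAs, miR-301a-3p included. The beads and RNase H comparisons share the control libraries. In them, the log2 ratio of means was 0.28 and 1.92 for miR-301a-3p, -0.27 and -0.61 for miR-130b-3p, and -0.22 and -0.58 for miR-130a-3p.

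Across the 6 control and beads libraries, the members were compared with all other miRNAs tested by the root mean square difference of their log2 levels, each centred on its own mean. The difference between miR-130a-3p and miR-130b-3p was 0.141, which placed miR-130b-3p at rank 35 of 306 in likeness to miR-130a-3p. miR-301a-3p was at rank 161 for miR-130a-3p, with a difference of 0.326, and at rank 138 for miR-130b-3p, with a difference of 0.297. The median differences over all miRNAs were 0.311 and 0.317. The closest to the family sum, of 304, was MIMAT0004750, with a difference of 0.043, and the closest to miR-301a-3p was MIMAT0000248, with 0.055. These libraries share pools and depth within a group, and the files do not pair these identifiers with names.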

How the data were processed

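Small RNA libraries were prepared with the TruSeq kit from 3 control, 3 beads and 3 RNase H fractions of mouse serum RNA. The authors trimmed adapters with cutadapt 1.8.1, kept reads of at least 15 bases, and mapped them to GRCm38 with Bowtie 1.1.2 without mismatches. Reads with a sequencing error or untemplated end are thus missing. The deposited values are raw counts per miRNA and, for other small RNA classes, per distinct read, in 18 files.

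Levels were computed as counts per 1000000 miRNA counts (CPM). All miRNAs were fitted by edgeR 4.0.16, run in R 4.3.3 (TMM, filterByExpr, quasi-likelihood test, Benjamini-Hochberg adjustment over all miRNAs tested, threshold 0.05), fitting only the compared groups and checked on simulated counts. DESeq2 1.42.0 was an alternative. Intervals came from SciPy 1.17.1 in Python 3.11.15. Reads carry no molecular identifiers, so intervals cover counting error only. Likeness used log2(CPM + 5).

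The members and lists were chosen with earlier results of these data known. Named miRNAs were the members, their neighbours in control level and the miRNAs most like them, of which 2 unnamed ones are given by identifier. The names of the members come from the selection rule. Planned lists of same-seed, other-strand, offset-seed and cell type marker miRNAs could not be matched to identifiers. Libraries of 1 pool come from the same RNA per the labels. Deviations of beads and control libraries of the same pool from their group means correlated at 0.16, 0.086 and 0.0053 in pools A, B and C, and those of RNase H and control libraries at -0.050, 0.017 and -0.025. Libraries of 1 group, compared in pairs, differed by more than sampling noise. Chi-square per degree of freedom was 1.37 to 4.27 in control, 12.3 to 20.5 in beads and 2.70 to 6.66 in RNase H libraries.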

Additional observations from a re-analysis of the deposited data

How the results depend on the processing

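Scaling decided the direction of the sums. With all annotated counts as the total, the log2 ratio of the family sum was 3.21 for beads (-0.12 with miRNA counts) and -0.98 for RNase H (0.36). That of miR-130a-3p in beads libraries became 3.11, both as a ratio and as fitted, and that of miR-130b-3p 3.07 in both. The median of all miRNAs shifted to 3.37 and -1.70 in these fits. In them, 332 of 332 (beads) and 51 of 143 (RNase H) miRNAs tested passed the threshold. In the main fits, 82 of 307 and 16 of 138 did. The log2 ratio of means of miR-301a-3p was then 3.60 and 0.56, and its fitted value 3.60 and 0.20. The members' shares of the family were recomputed only from pooled counts or with 1 library left out, as scaling cannot move them. All 42 values stayed within the replicate spread. Leaving out 1 of 3 libraries moves a mean little beside that spread by construction, so nothing is concluded from it. DESeq2 called 32 miRNAs for RNase H. With 1 library left out, 66 to 76 miRNAs passed for beads and 4 to 14 for RNase H. The latter fell to 6, 4 and 4 without control A, B and C, when only 33 or 34 were tested and the members could not be fitted, and to 9 without RNase H C. The family sum ranged from -0.15 to -0.097 for beads and from 0.11 (without RNase H C) to 0.59 (without RNase H A) for RNase H.

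With the serum pool as a block (paired fit), 91 miRNAs passed for beads and 12 for RNase H, and the mean within-pool log2 ratio of the family sum was -0.12 and 0.31. miR-130a-3p then passed for beads and miR-301a-3p no longer for RNase H. The members were refitted under each setting, a choice made after seeing the data. For beads, miR-130a-3p passed in 4 of 11 settings and miR-130b-3p in 7, each count including the fit on all annotated counts, in which they were higher and not lower. miR-130b-3p did not pass without a low-count filter or without control A, control B or beads C. miR-301a-3p passed in 5, among them the fit on all annotated counts, in which all miRNAs tested passed as higher. It did not pass with DESeq2, in a joint fit of all 9 libraries, or without control B, control C, beads A or beads C. For RNase H, miR-301a-3p passed in 3 of 8 settings, with fold changes from 0.20 to 2.02, and miR-130a-3p and miR-130b-3p in 1 of 8 each, as lower on all annotated counts. The 5 miRNAs most like the family sum were all replaced (0 of 5 shared) when all 9 libraries were used. Depth limits all statements on RNase H libraries, in which 1 count equals 490 to 834 CPM.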
